A study of Arabidopsis thaliana with 12 samples.

Results

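The Col-0xPer-1 hybrid of Arabidopsis thaliana was compared with its Per-1 parent, to describe which genes stand higher or lower when a Col-0 genome replaces a Per-1 genome. Members were taken by their labels: 2 libraries titled as the hybrid and 2 titled Per-1, of 12 in the series. RNA came from the first leaf of plants kept for 14 days on Murashige and Skoog plates with 1% sucrose. Col-0 and Per-1 are natural inbred accessions, and the hybrid carries a genome of each. The labels do not give which was the mother, nor whether replicates were separate plants. A p-value therefore sets a difference only against the spread of libraries within groups, and that spread may be technical. The other 8 libraries (4 of Col-0, 2 of Aa-0, 2 of the Col-0xAa-0 hybrid, with the same organ, age and medium) entered the fit for its estimate of the spread. Where the series text speaks of Ler-1 and of duplicates, the labels have Per-1 and 4 libraries for Col-0, and the labels were followed.

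Values are FPKM, fragments scaled by transcript length and by the size of the library. Of 34133 genes in the files, 16116 had at least 1 FPKM in at least 2 of the 4 hybrid and Per-1 libraries and were tested. Differences are hybrid minus Per-1 on the log2(FPKM + 1) scale, which understates the change of low genes, and were called at an adjusted p under 0.05 (limma, Benjamini-Hochberg over all genes tested). In leaf RNA, fewer cells of a type and less RNA per cell cannot be told apart. Reads were aligned to TAIR10, a Col-0 genome, so a low Per-1 value and Per-1 reads lost through diverged sequence cannot be told apart either.

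Much of what follows concerns leaf defence. Aliphatic glucosinolates are sulphur compounds of the mustard family made from chain-elongated methionine, and indole glucosinolates are made from tryptophan; the enzyme myrosinase splits both when tissue is damaged. Jasmonate is the hormone of the wound response, in which JAZ repressors hold back MYC transcription factors until the hormone receptor COI1 removes them. NLR proteins are receptors inside the cell that recognise pathogen effectors, and salicylic acid is a hormone of the immune response that often follows; natural accessions are known to differ widely in NLR genes and in glucosinolate genes.

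Leaf identity held in all 4 libraries. The 38 photosynthesis genes summed to 196000 and 203200 FPKM in the hybrid and 186600 and 201900 in Per-1. The 8 root markers summed to at most 16.73 FPKM and the 8 shoot meristem markers to at most 16.59 in any of them, with 1 root and 3 meristem markers at 0 in all 4. Replicates correlated across genes at r = 0.986 in the hybrid and 0.989 in Per-1, against 0.934 to 0.966 between the groups. Hybrid replicate 2 was the shallowest of the 12 libraries, at 0.65 of the depth of Col-0 replicate 1 as read from low values, with hybrid replicate 1 at 0.85 and the others at 0.89 to 1.12; it also had the largest plastid-encoded share, 5.76% of summed FPKM against 2.92% in replicate 1. Values of exactly 0 need care. The Rubisco small-subunit gene RBCS1A had a listed value of 0 in replicates 1 and 2 of Col-0, whereas the other pair stood at 19510 and 19500 FPKM. The morning clock gene LHY split Col-0 the same way, with 50.59 and 51.48 FPKM in the first pair but 1.57 and 1.85 FPKM in the other. Values of 0 are therefore given as listed, and Col-0 as a range over its 4 libraries.

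In all, 374 genes rose in the hybrid (2.32% of those tested) and 399 fell (2.48%), 4.8% together. The median difference over all genes tested was -0.05, with quartiles of -0.24 and 0.12. Of the called genes, 259 rose and 214 fell by at least 1 on the log2 scale, and 87 and 50 by at least 2. Most moved toward Col-0. The Col-0 mean lay above the Per-1 mean for 366 of the 374 that rose and below it for 388 of the 399 that fell; these genes were chosen with the same Per-1 values, so the counts are a description. The hybrid mean lay between the parental means for 291 of the 374. It lay above both for 83 of the 374. Among the 399 that fell it lay between them for 186 and below both for the other 213, and both hybrid values were under all 4 Col-0 and both Per-1 values for 113. The median log2(FPKM + 1) of genes tested was 3.475 to 3.55 in Col-0 libraries, 3.304 and 3.148 in the hybrid, and 3.303 and 3.296 in Per-1. Hybrid libraries were thus centred below Col-0. The placement counts were not corrected for this, and its share in them was not tested. Another annotated gene overlapped 153 of the genes that rose and 173 of those that fell, against 5307 of all genes tested. The library kit named in the labels does not mark strand, so reads of overlapping genes cannot be told apart. Among genes described below this holds for WRKY53, SAG21, BCAT4, IMD1, GSTF11, SOT18, GSOX5, CYP81F1, COI1, MYC2, JAZ10, RPS2, RPP1, RPP5, RPP8, ADR1-L1, SPL3, FLC, TCP3, UGT75C1, PCNA2, MCM7, YCF37 and UBQ6, and for AT1G66100, AT1G72600, AT2G35945, AT5G02140, AT5G43740, AT4G13505, AT1G25098 and AT1G25175. The same holds for AT1G24822 and AT1G25211. The totals moved with single libraries. Without Per-1 replicate 1, 221 genes rose and 164 fell, and without hybrid replicate 2, 246 and 170; without hybrid replicate 1 the risers numbered 248, and without Per-1 replicate 2 the fallers numbered 252.

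**Figure D1:**
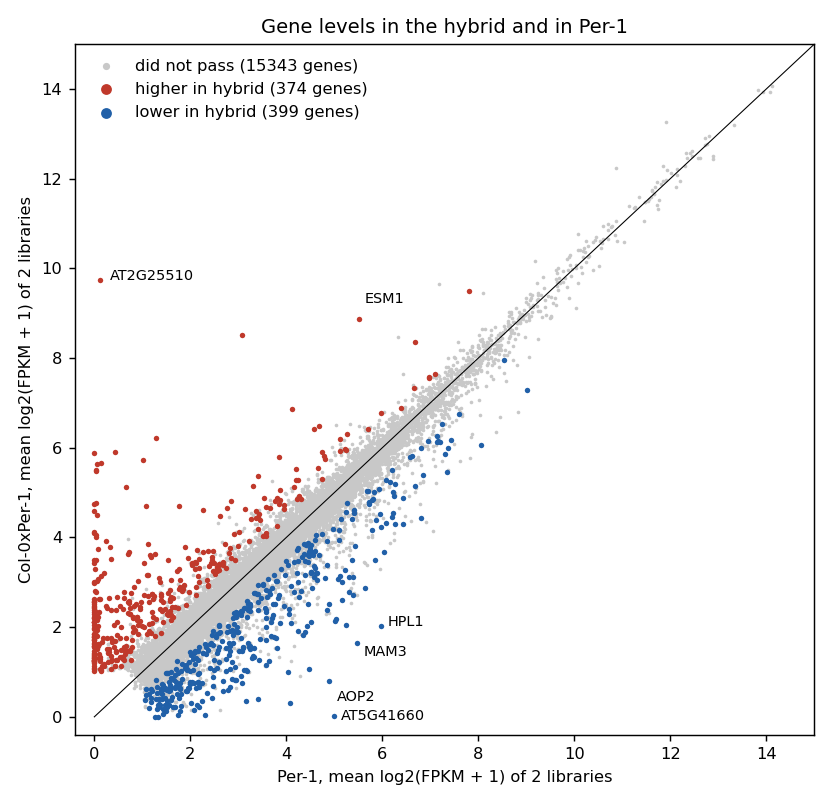
Each point is a gene tested; the axes give its mean log2(FPKM + 1) over the 2 Per-1 libraries (horizontal) and the 2 Col-0xPer-1 libraries (vertical), and the line marks equal levels. The 374 genes that rose include a column of points at 0 in Per-1, and 63 of them were listed at 0 in both Per-1 libraries.

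The lists of related genes moved unevenly. Aliphatic and indole glucosinolate synthesis, jasmonate and salicylic acid genes had members that fell and medians well under that of all genes, while NLR receptors had members that rose. No member passed in photosynthesis (0 of 38), chlorophyll metabolism (0 of 16), cytosolic ribosomal proteins (0 of 21), cell cycle and DNA replication (0 of 22), cold and drought response (0 of 19), senescence (0 of 6), heat shock (0 of 5) or the markers of vascular tissue (0 of 11), stomatal lineage (0 of 4), root (0 of 3), trichomes (0 of 1) and shoot meristem (0 of 1). Of all genes tested 4.8% were called, so 0 calls in a short list is no result about it. The spread in this fit also includes the divided Col-0 libraries, as for RBCS1A (SE 4.56). The 0 counts therefore do not show unchanged levels. None of the 22 clock genes passed in the fit that includes the divided Col-0 libraries. The morning gene CCA1 was at 44.77 and 39.12 FPKM in the hybrid, 21.78 and 26.25 in Per-1 and 8.58 to 116.5 in Col-0 (0.78, SE 1.13, adjusted p 0.81). In the fit without the Col-0 libraries, where 2.72% of all genes tested rose and 2.87% fell, 2 clock genes rose and 4 fell, and the adjusted p of CCA1 was 0.0215. It was 0.0345 in the fit on the 4 hybrid and Per-1 libraries and 0.0166 with the replicate number as a block. Leaf senescence had no call but a median of -1.255. Hybrid values were below both Per-1 values for 5 of its 6 members tested, and for 5253 of all 16116 genes tested. WRKY53, a transcription factor of senescence, was at 3.62 and 0.2 FPKM in the hybrid against 20.36 and 12.53 in Per-1 (-2.85, SE 1.18, adjusted p 0.28). SAG21, a senescence-associated gene, was at 93.75 and 30.42 against 296.8 and 173.7 (-2.06, SE 0.71, adjusted p 0.18).

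**Figure D2:**
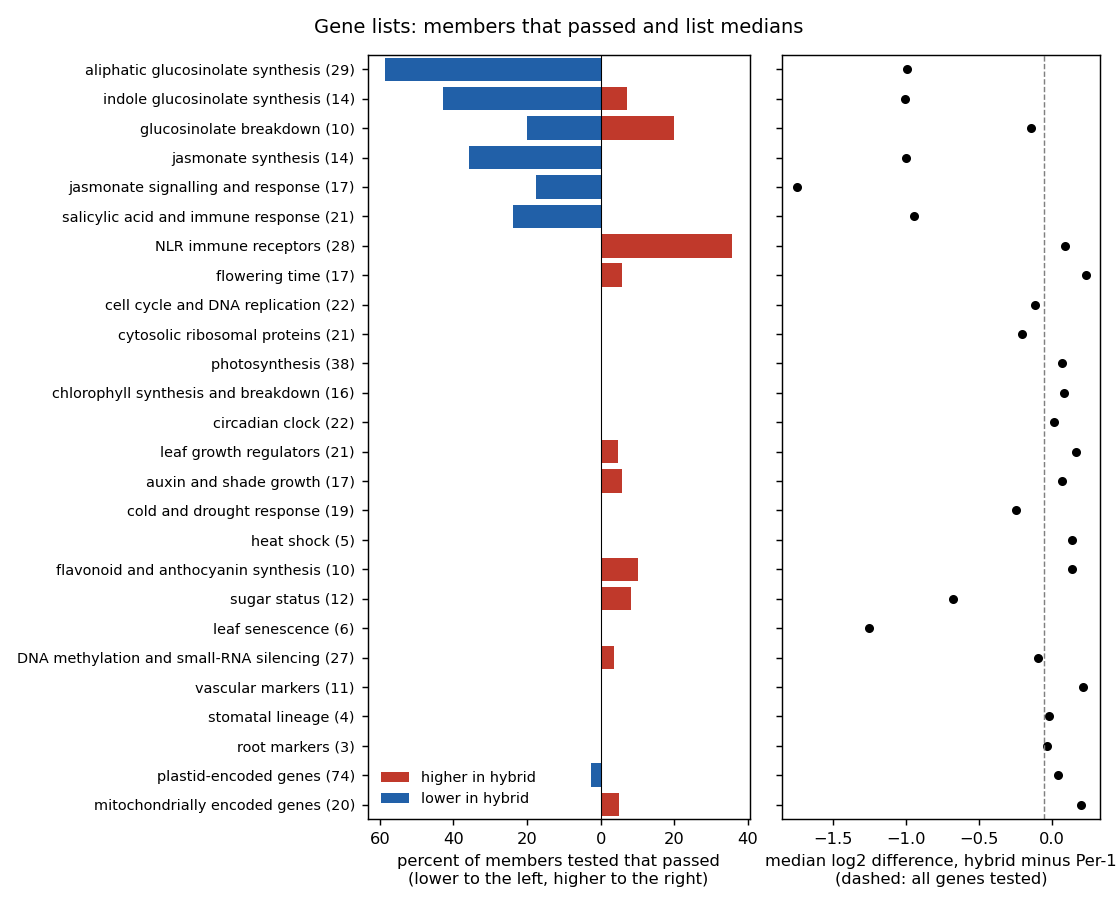
Left, the percent of each list's tested members (their number in brackets) that passed, lower in the hybrid to the left and higher to the right. Right, the median log2 difference of the tested members, with the dashed line at -0.05 for all genes; aliphatic glucosinolate synthesis has the longest bar, 17 of 29 lower.

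Many genes of aliphatic glucosinolate synthesis fell. Of 29 members tested of 30, 17 fell and 0 rose, with a median of -0.99 against -0.05 over all genes and 2.48% of all genes falling. The summed level of the list was 583.1 and 699.6 FPKM in the hybrid, 1403 and 1202 in Per-1 and 912.5 to 1079 in Col-0. The hybrid sums lay under those of both parents. Without Per-1 replicate 1, 6 members fell, and without hybrid replicate 1, 9. Members that fell in every fit that left out 1 library were 6: MAM3, AOP2, CYP79F2, IPMI1, GSTF11 and GGP1.

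The pathway starts with chain elongation. MAM3, a methylthioalkylmalate synthase that makes long side chains, was at 1.96 and 2.34 FPKM in the hybrid, 46.5 and 40.34 in Per-1 and 0.29 to 0.46 in Col-0 (log2 difference -3.82, SE 0.12, adjusted p 7.4e-08). The hybrid stood far closer to Col-0 than to Per-1. Its neighbour MAM1, which makes shorter chains, was at 19.93 and 30.44 in the hybrid, 39.54 and 33.53 in Per-1 and 62.73 to 84.78 in Col-0. Both hybrid values were below all values of both parents, but MAM1 did not pass (-0.55, adjusted p 0.38). BCAT4, the aminotransferase that feeds methionine into the cycle, was at 5.16 and 11.57 in the hybrid against 41.47 and 27.31 in Per-1, and 27.53 to 37.32 in Col-0. It fell by 1.98 (SE 0.34), with an adjusted p of 0.0073 that became 0.089 without Per-1 replicate 1. The isomerase subunit IPMI1 was at 8.26 and 12.74 against 48.22 and 34.05, and 14.71 to 19.76 in Col-0. It fell by 1.88 (SE 0.26, adjusted p 0.0019). IPMI2, IMD1 (the dehydrogenase of the cycle) and the plastid bile-acid-type transporter BAT5 also fell, by 1.75, 1.22 and 1.37. All 3 lost their call without Per-1 replicate 1 (adjusted p 0.058, 0.19 and 0.18), IMD1 also without Per-1 replicate 2 (0.065) or hybrid replicate 1 (0.16), and BAT5 also without any of the other hybrid and Per-1 libraries (0.063 to 0.17).

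Core synthesis comes next. CYP79F1 and CYP79F2, the cytochrome P450 enzymes that turn elongated methionine into aldoximes, are neighbours on one strand with 1183 bases between them. CYP79F1 was at 15.62 and 25.73 FPKM in the hybrid, 61.9 and 53 in Per-1 and 40.16 to 59.67 in Col-0 (-1.47, SE 0.29, adjusted p 0.017). CYP79F2 was at 0.86 and 1.22, 6.48 and 4.98, and 2.29 to 3.47 (-1.72, SE 0.18, adjusted p 0.00026). For both genes the hybrid libraries were under all 6 parental libraries. CYP79F1 lost its call without either Per-1 replicate or without hybrid replicate 1, with adjusted p from 0.067 to 0.15. CYP83A1, the next P450, fell by 1.01 (adjusted p 0.045) and lost its call in 9 of the 12 omissions and with the replicate block. The call was also lost without a filter, with a filter of 5 FPKM, and with median-ratio or quantile scaling. It was lost as well without the Col-0 libraries and without overlapping genes. GSTF11, GSTU20 and GGP1, of the steps that bring in sulphur, fell by 1.94, 1.38 and 0.99. The C-S lyase SUR1 and the sulphotransferases SOT17 and SOT18 fell by 0.80, 1.47 and 0.82. Of these only GSTF11 and GGP1 passed in every omission. GSTU20, SOT17 and SOT18 were no longer called when Per-1 replicate 1 (adjusted p 0.15, 0.058 and 0.079) or hybrid replicate 1 (0.12, 0.057 and 0.0504) was left out; SUR1 lost its call without either of these (0.21 and 0.11) or hybrid replicate 2 (0.13).

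Side-chain genes were split. AOP2, which makes alkenyl glucosinolates and is known to be non-functional in Col-0, was at 0.53 and 0.99 FPKM in the hybrid, 32.61 and 25.26 in Per-1 and 2.58 to 4.71 in Col-0. It fell by 4.09 (SE 0.25, adjusted p 6.1e-06), and the hybrid was lower than either parent. GSOX1, a flavin monooxygenase that oxidises the side chain, was at 3.31 and 3.85 against 14.91 and 9.65 and fell by 1.51; without Per-1 replicate 1 its adjusted p was 0.062. GSOX4 (3.84 and 4.61 against 2.27 and 2.35) and GSOX5 (14.75 and 13.73 against 13.08 and 14.19) did not pass. The 3 MYB activators of the pathway did not pass either. MYB28 was at 20.98 and 28.75 in the hybrid and 17.59 and 27.58 in Per-1, with overlapping values (0.15, SE 0.28, adjusted p 0.86). MYB29 was at 3.96 and 6.99 against 2.53 and 3.29 (0.69, adjusted p 0.33), the highest difference in the list. Without 1 hybrid or Per-1 library the difference of MYB28 ran from -0.16 to 0.46, so it has no settled direction.

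**Figure D3:**
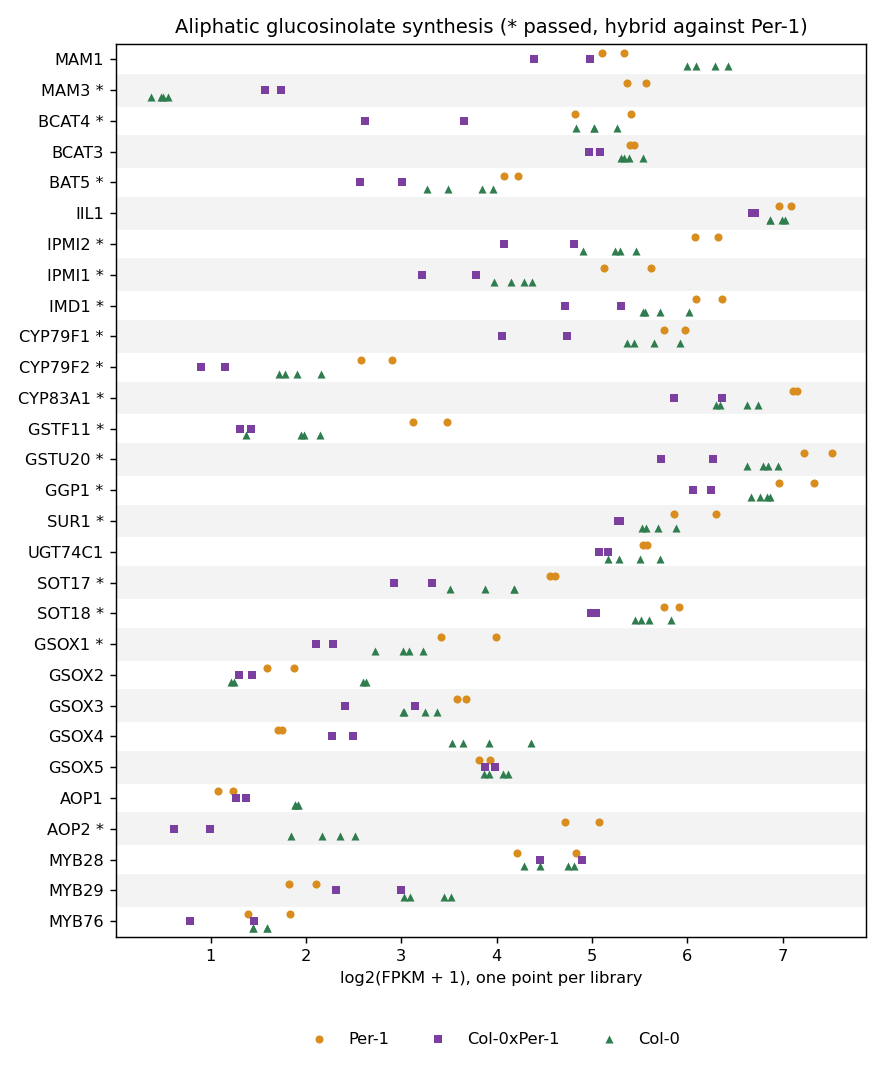
Level of each tested aliphatic glucosinolate gene in single libraries, as log2(FPKM + 1): circles Per-1, squares the hybrid, triangles Col-0, with an asterisk on the 17 genes that passed. Squares lie left of both parents for genes such as IPMI1 and CYP79F2, near Col-0 for MAM3, and among the parents for MYB28.

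Indole glucosinolate genes moved in both directions. Of 14 tested of 16, 6 fell and 1 rose, against 2.48% and 2.32% of all genes, with a median of -1.01. IGMT2, a methyltransferase of indole glucosinolates, was at 3.58 and 2.72 FPKM in the hybrid, 41.3 and 33.18 in Per-1 and 0.61 to 1.92 in Col-0 (-3.20, SE 0.30, adjusted p 0.00014). It was the one indole gene called in every omission, and its hybrid level was close to that of Col-0. CYP79B2, which turns tryptophan into its aldoxime, was at 10.45 and 7.77 against 29.92 and 17.98 and fell by 1.27 (adjusted p 0.012). UGT74B1, a glucosyltransferase, was at 28.9 and 26.81 against 60.24 and 49.93 and fell by 0.95 (adjusted p 0.0069). IGMT1, SOT16 and CYP83B1 fell by 2.26, 1.06 and 0.79. CYP81F1, a P450 that hydroxylates the indole ring, went the other way, at 1.74 and 1.63 against 0.2 and 0.25, and rose by 1.13 (adjusted p 0.021). Only 1 of the list fell without Per-1 replicate 1 or without hybrid replicate 2, and 3 without either Aa-0 library. The call of CYP81F1 was lost without any 1 of the 4 hybrid and Per-1 libraries (adjusted p 0.097 to 0.15).

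Genes that break glucosinolates down held the largest difference of any gene on the lists, though not of all genes tested. TGG2, a myrosinase, was at 55.43 and 62.23 FPKM in the hybrid against 0.33 and 0.38 in Per-1, and at 226.4 to 266.8 in Col-0 (5.46, SE 0.15, adjusted p 4.1e-08). The hybrid level was 23.8% of the Col-0 mean, and lay outside the range of either parent. Its partner TGG1 was high everywhere, at 1345 and 1328 in the hybrid and 1108 and 1218 in Per-1, and did not pass (0.20, adjusted p 0.59). ESM1, a modifier that favours isothiocyanate formation, was at 462.7 and 471.6 in the hybrid, 43.17 and 46.83 in Per-1 and 450.3 to 660.6 in Col-0 (3.35, SE 0.17, adjusted p 1.8e-06). The hybrid lay within the range of Col-0. ESP, the epithiospecifier protein that ESM1 is known to oppose, moved the other way, at 21.69 and 22.63 against 46.98 and 36.35, with Col-0 at 19.17 to 21.7 (-0.87, SE 0.13, adjusted p 0.0035). NSP4, a nitrile-specifier gene, was at 0.64 and 0.49 against 2.62 and 1.86 and fell by 1.04 (adjusted p 0.0017). These 2 rises and 2 falls, of 10 tested of 13, were the only calls of the list. Of all genes tested, 2.32% rose and 2.48% fell. The 4 calls of the list held in all 12 omissions.

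The jasmonate synthesis list had 5 members that fell and 0 that rose of 14 tested of 15, against 2.48% of all genes falling, with a median of -0.997. The list also holds HPL1 and CYP94C1, which do not make the hormone. HPL1, the hydroperoxide lyase that draws the same lipid precursor into leaf volatiles instead, was at 3.11 and 3.01 FPKM in the hybrid, 54.12 and 69.78 in Per-1 and 0.78 to 1.74 in Col-0 (-3.94, SE 0.23, adjusted p 4.3e-06). The hybrid was slightly above Col-0 and far below Per-1, as with MAM3. OPR3, the reductase of the late synthesis steps, was at 14.64 and 9.56 against 105.1 and 39.83, with Col-0 at 17.8 to 43.52 (-2.36, SE 0.48, adjusted p 0.020). OPCL1, which activates the OPDA-derived chain for shortening, fell by 2.13, AOC3, an allene oxide cyclase, by 2.03, and CYP94C1, which breaks the active hormone down, by 2.11. LOX2, AOS and AOC2, earlier steps of the main leaf route, did not pass. Per-1 replicates differed for these genes as well, with OPR3 higher in replicate 1. Leaving out Per-1 replicate 1 or hybrid replicate 2 left HPL1 alone called, and leaving out hybrid replicate 1 left 2 members.

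In jasmonate signalling, 3 of 17 tested of 20 fell and 0 rose, against 2.48% of all genes falling, although the median, -1.75, was the lowest of all lists. JAZ10 was at 1.43 and 0.65 FPKM in the hybrid, 26.85 and 8.56 in Per-1 and 1.26 to 4.79 in Col-0 (-3.03, SE 0.53, adjusted p 0.0080). JAZ2 was at 22.6 and 13.9 against 84.09 and 45.88 (-1.75, SE 0.34, adjusted p 0.016). MYC2 was at 31.96 and 13.15 against 134.6 and 90.33, with Col-0 at 29.61 to 78.86 (-2.37, SE 0.57, adjusted p 0.047). Hybrid replicate 2 was lower than replicate 1, and Per-1 replicate 2 lower than replicate 1, for all 3. JAZ7 (2.48 and 0 against 32.7 and 10.26) narrowly missed the threshold at an adjusted p of 0.053, and the receptor gene COI1 (16.13 and 12.29 against 13.49 and 14.23) was far from it at 0.96. No member was called without Per-1 replicate 1 or without hybrid replicate 2, and 5 without Col-0 replicate 4. MYC2 lost its call in 8 of the 12 omissions.

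MYC2 binds the G-box, CACGTG, a palindrome that reads the same on both strands. Windows of 250 bases before the annotated gene start (TAIR10.1, the Col-0 sequence; the Per-1 sequence was not used here) held it in 7.49% of the 15945 tested nuclear genes with a window. It was present in 2 of 17 aliphatic glucosinolate genes that fell and 1 of 3 jasmonate signalling genes that fell. It was in 0 of 5 members of the jasmonate synthesis list that fell, 0 of 6 indole glucosinolate genes that fell and 0 of 5 salicylic acid genes that fell. Over all genes the share was 4.1% of the 390 windows of genes that fell and 5.28% of the 360 of genes that rose, both under the 7.49%. The 3 windows with a match are shown to place it before the start of listed genes that fell, most of which hold none; capitals mark the G-box, and letters run 5′ to 3′ toward the gene. They lie at chr1:28150447-28150696, chr2:8880441-8880690 and chr4:7992430-7992679, all on the minus strand.
JAZ2: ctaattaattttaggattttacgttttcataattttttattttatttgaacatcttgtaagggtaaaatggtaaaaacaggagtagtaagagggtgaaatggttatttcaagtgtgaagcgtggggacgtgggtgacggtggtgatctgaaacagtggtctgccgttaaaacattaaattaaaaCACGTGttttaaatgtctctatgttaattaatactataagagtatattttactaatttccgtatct
SUR1: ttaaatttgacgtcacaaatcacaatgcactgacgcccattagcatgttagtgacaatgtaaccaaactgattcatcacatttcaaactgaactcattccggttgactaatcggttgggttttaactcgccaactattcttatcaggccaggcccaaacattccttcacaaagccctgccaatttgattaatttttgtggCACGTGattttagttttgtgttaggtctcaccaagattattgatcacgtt
CYP83A1: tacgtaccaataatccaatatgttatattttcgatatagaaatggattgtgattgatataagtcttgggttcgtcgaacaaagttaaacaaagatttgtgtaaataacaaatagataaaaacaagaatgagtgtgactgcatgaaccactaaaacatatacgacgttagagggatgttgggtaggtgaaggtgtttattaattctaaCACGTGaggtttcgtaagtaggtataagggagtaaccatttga
The G-box begins 66 bases before the start of JAZ2, 50 before SUR1 and 43 before CYP83A1. The match is a description of the letters in the window; binding was not measured.

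Some salicylic acid and immune response genes fell. All 21 members tested of 26 had negative differences, with a median of -0.95, and 5 fell, against 2.48% of all genes. PR1, the classical marker of salicylic acid response, was at 2.72 and 0.19 FPKM in the hybrid, 41.31 and 10.66 in Per-1 and 0.06 to 1.67 in Col-0 (-3.40, SE 0.83, adjusted p 0.049). PR5, another pathogenesis-related gene, was at 2.4 and 0.83 against 8.09 and 9.31 (-1.96, adjusted p 0.039). EDS1, the lipase-like hub of TIR-type NLR signalling, was at 12.61 and 9.8 against 20.03 and 25.02, with Col-0 at 6.7 to 10.04 (-0.95, SE 0.20, adjusted p 0.023). Hybrid and Per-1 values did not overlap for any of these, which was so for all 773 genes called. The hybrid lay near Col-0 for EDS1. NUDT6 and the glutaredoxin gene GRX480 fell by 1.36 and 2.17. PAD4, the partner of EDS1, was at 10.66 and 7.45 against 10.77 and 14.1, and the glucanase gene BGL2 at 15.32 and 5.38 against 26.77 and 37.18; neither passed (adjusted p 0.43 and 0.19). WRKY70, the most abundant transcription factor of the list, was at 197.4 and 97.81 against 182.6 and 199.7 with overlapping values. No member was called without Per-1 replicate 1 or without hybrid replicate 2, 2 without Per-1 replicate 2, and 3 without Col-0 replicate 1, 2 or 4. PR1 lost its call in 9 of the 12 omissions and PR5 in 8. With the replicate number as a block neither passed (adjusted p 0.063 and 0.058), nor without the Col-0 libraries (0.071 and 0.063), and PR1 also missed in the fit on the 4 libraries (0.0501). The list's summed level was 338.8 and 185.5 FPKM in the 2 hybrid libraries, 434.9 and 428.3 in Per-1 and 115 to 226.6 in Col-0. Hybrid replicate 1 was thus above the range of Col-0 and replicate 2 within it.

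Several NLR receptors rose. All 28 were tested; 10 rose and 0 fell, against 2.32% of all genes rising, while the list median was 0.10. CHS3 and CSA1, a receptor pair known to act together, lie head to head with 3544 bases between them. CHS3 was listed at 0 in both Per-1 libraries, at 3.65 FPKM in both hybrid libraries and at 6.66 to 8.4 in Col-0 (2.22, SE 0.15, adjusted p 1.2e-05). CSA1 was listed at 0 in both Per-1 libraries, at 2.3 and 2.28 in the hybrid and at 4.12 to 6.3 in Col-0 (1.72, SE 0.17, adjusted p 0.00021). The mean hybrid levels of the pair were 46.9% and 45.4% of their Col-0 means. RPP2A, needed with RPP2B for resistance to a downy mildew isolate, was at 6.64 and 5.49 against 0.02 and 0, with Col-0 at 12.35 to 15.09 (2.80, SE 0.13, adjusted p 1.1e-06). RPP2B, its neighbour on the same strand, behaved unlike it: 22.47 and 22.07 in the hybrid, 26.77 and 30.57 in Per-1 and 10.48 to 14.44 in Col-0, with no call (-0.35, adjusted p 0.32).

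RPS2, a guard of RIN4, was at 2.53 and 1.94 FPKM in the hybrid against 0.29 and 0.42, above the 1.06 to 1.78 of Col-0 (1.25, adjusted p 0.0013). VICTR was also above most of Col-0, at 3.48 and 3.91 against 0.67 and 1.06 (1.34, adjusted p 0.013). SNC1 was at 57.62 and 53.75 against 25.66 and 27.86, with Col-0 at 51.62 to 60.02 (1.03, SE 0.13, adjusted p 0.00082). RPP1, RPP5 and RPP8 rose by 1.14, 1.02 and 0.97. RPP8 was at 28.8 and 26.61 against 13.55 and 13.67, with Col-0 at 46.25 to 60.51. The RPP1, RPP5-SNC1 and RPP8 genes belong to clusters of similar copies among which reads can be split, so these levels are uncertain. Calls held in all 12 omissions for 8 of the 10; RPP5 lost its call (adjusted p 0.10 and 0.083) when Per-1 replicate 1 or hybrid replicate 1 was left out, and VICTR without Per-1 replicate 1 or either hybrid library (0.058 to 0.13). The helper NLRs ADR1, ADR1-L1, ADR1-L2, NRG1.1 and NRG1.2 all had negative differences, from -0.28 to -0.73, and none passed.

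**Figure D4:**
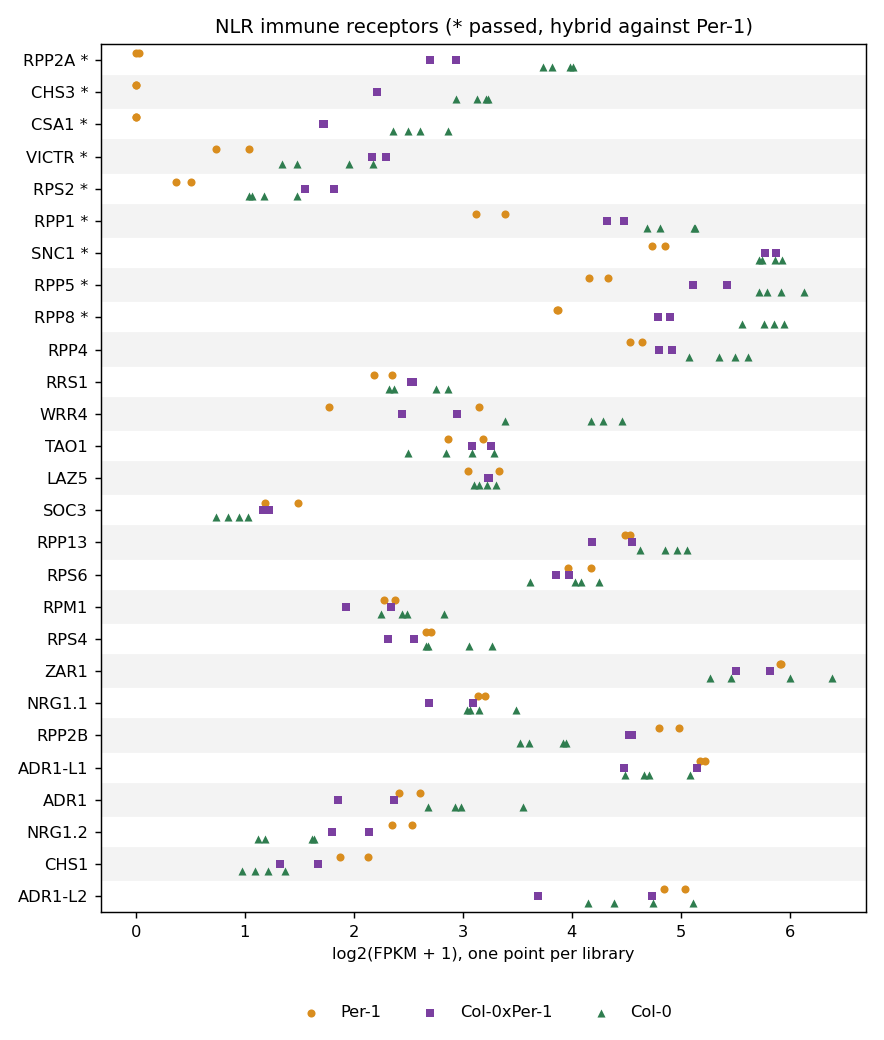
Level of 27 of the 28 NLR genes in single libraries, as log2(FPKM + 1), ordered by the difference between hybrid and Per-1; symbols are as in the glucosinolate plot, and an asterisk marks the 9 of them that passed. For RPP2A, CHS3 and CSA1, Per-1 sits at or near 0 and the hybrid between Per-1 and Col-0.

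Elsewhere, single members moved. SPL3, a promoter of flowering, was at 2.34 and 2.41 FPKM against 0.26 and 0.27 in Per-1 and 1.29 to 1.99 in Col-0. It rose by 1.42 (SE 0.15, adjusted p 0.00032), the 1 call among 17 flowering genes, against 2.32% of all genes rising. FLC, the repressor of flowering, was at 34.64 and 39.02 in the hybrid, 53.72 and 42.41 in Per-1 and 0 to 0.26 in Col-0. The hybrid kept a level near that of Per-1 rather than of Col-0, and FLC did not pass (-0.37, SE 0.16, adjusted p 0.29). SOC1, which FLC is known to repress, was at 16.83 and 15.72 against 9.61 and 15.72, with Col-0 at 39.17 to 43.77, and did not pass (adjusted p 0.42). TCP3, a regulator of leaf shape, was at 5.73 and 5.36 against 1 and 1.11 (1.67, adjusted p 0.016), while ARGOS, a promoter of organ size, was at 4.62 and 3.5 against 2.56 and 3.01 and did not pass. SAUR19, APL3, SUVH9 and UGT75C1 were the single calls of the auxin, sugar, silencing and flavonoid lists (17, 12, 27 and 10 members tested). Beside the 2.32% of all genes that rose, 1 call in lists of this size is no result about a list. SAUR19, APL3, SUVH9 and UGT75C1 rose by 0.88, 0.98, 0.69 and 0.69. None of these 4, nor TCP3, held without Per-1 replicate 1 or without hybrid replicate 1 (adjusted p 0.055 to 0.25), and 4 of the 5 were also lost without Per-1 replicate 2 and 4 without hybrid replicate 2. Of the replication genes, PCNA2 was at 2.96 and 2.02 against 2.26 and 1.26, and MCM3 and MCM7 also gave no call.

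Of 74 plastid-encoded genes tested, 2 fell, a share near the 2.48% of all genes. ATCG00820 was at 56.14 and 57.68 FPKM against 156.2 and 158.9 (-1.45, adjusted p 0.043) and ATCG00900 at 95.51 and 119.2 against 198.2 and 185.8 (-0.84, adjusted p 0.040). Neither held when hybrid or Per-1 libraries were left out 1 at a time (adjusted p 0.084 to 0.26). Of 20 mitochondrially encoded genes tested, ATMG01080 rose (2.32% of all genes did), at 4.55 and 5.13 against 0.61 and 0.71, with Col-0 at 3.37 to 4.34 (1.81, SE 0.13, adjusted p 1.9e-05). Its call held in all 12 omissions.

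The largest rises were dominated by genes near 0 in Per-1. AT2G25510, annotated as an uncharacterized protein, was at 1010 and 719.9 FPKM in the hybrid and 0.18 and 0 in Per-1, with Col-0 at 471.3 to 907.1 (9.62, SE 0.32, adjusted p 8.8e-08). AT1G66100, annotated as a thionin, was listed at 0 in both Per-1 libraries, at 56.86 and 58.82 in the hybrid and at 79.57 to 297.2 in Col-0. AT1G23130, annotated in a lipid transport superfamily, was at 351.2 and 379.9 against 6.49 and 8.48, with Col-0 at 402.1 to 462.4. The hybrid means of these 3 were 122%, 33.5% and 83.5% of their Col-0 means. YCF37, of photosystem I assembly, was at 50.5 and 53.31 against 0.87 and 1.19, within the range of Col-0. UBQ6, a ubiquitin gene with close copies, was at 41.54 and 47.24 against 0 and 0.06. AT1G72600, AT3G47250, AT5G45428, AT1G25098, AT1G25175 and AT2G10410.1 completed the 12 largest rises with TGG2, at 4.73 to 5.58.

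Among the largest falls, AT5G41660 was at 0.04 and 0 FPKM in the hybrid against 34.35 and 27.61 in Per-1 and 0 in all 4 Col-0 libraries (-4.96, SE 0.12, adjusted p 2.1e-08). AT5G28450, annotated in the chlorophyll a-b binding family, was at 0.2 and 0.26 against 16.01 and 15.69, with Col-0 at 0.17 to 0.39 (-3.78). AT1G66860, of the glutamine amidotransferase-like family, was at 0.3 and 0.34 against 14.94 and 6.09 and listed at 0 in Col-0 (-3.01). In these 3 genes the hybrid was at the level of Col-0. AT2G35945, a non-coding RNA, was at 3.05 and 3.78 against 30.98 and 31.98 (-2.88), also at the Col-0 level of 1.85 to 4.77. AT2G27310, annotated as an F-box gene, was at 4.96 and 2.47 against 48.59 and 20.49 (-2.84), and lost its call without Per-1 replicate 1 or hybrid replicate 2 (adjusted p 0.16). AT5G27345.1 was at 0.23 and 0.31 against 8.01 and 7.99 (-2.83). MAM3, AOP2, HPL1, PR1, IGMT2 and JAZ10, given above, made up the 12.

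Genes near 0 in a parent were next read in the hybrid. For those near 0 in Per-1, low expression and Per-1 reads lost on the Col-0 genome cannot be told apart, so their parental source is not certain. The members were chosen on the parents alone, from all 34133 genes, so their calls against Per-1 are no result. In Per-1, 41 genes were at most 0.2 FPKM in both libraries while at least 5 FPKM in all 4 Col-0 libraries. The hybrid had a median of 46.9% of the Col-0 mean (quartiles 37.1% and 59.5%, range 4.32% to 145%), with 34 of the 41 between 25% and 75%. The medians in single hybrid libraries were 50.3% and 46.1%. Besides CHS3 and RPP2A, the set held the receptor genes AT5G43740 (66.1% of Col-0) and AT1G63880 (46.4%), named after their values were seen. It also held 6 genes from AT1G24822 to AT1G25211 on chromosome 1, at 52.6% to 71.5%. All 6 overlap another annotated gene, so their levels cannot be told apart from those of the overlapping genes. AT2G25510 reached 122% and the non-coding AT4G13505 reached 145%, while AT1G20390 was at 4.32%. Of the genes just within the limits, AT2G14460 was at 0.1 and 0 FPKM in Per-1 and 7.03 to 8.45 in Col-0, and was at 26.2%. Members listed at 0 in every Per-1 library numbered 19, and 18 of the 41 overlap another annotated gene.

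The reverse set, near 0 in all 4 Col-0 libraries and at least 5 FPKM in both Per-1 libraries, held 17 genes. The hybrid had a median of 38.9% of the Per-1 mean (quartiles 15.2% and 52%, range 0.0646% to 61.1%), with 11 between 25% and 75% and 6 below 25%. AT2G15555, a non-coding RNA, was at 19.71 and 20.57 FPKM in the hybrid against 38.6 and 41.78 in Per-1, and AT4G12100, a cullin family gene, at 12.1 and 11.44 against 20.74 and 21.33. These lay near the middle between the parents. AT5G02140, a thaumatin family gene, was at 5.44 and 6.51 against 17.56 and 20.32, and AT3G28320 at 3.84 and 2.39 against 20.38 and 20.56. AT5G41660, AT1G66860 and AT5G27345.1 were below 5% of Per-1. MAM3 and HPL1 were above the limit in Col-0 and so are not in this set, but their hybrid levels were also low, at 4.95% and 4.94% of the Per-1 means. With median-ratio scaling of the libraries the 2 medians were 56.8% (39 genes) and 50.6% (19 genes).

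**Figure D5:**
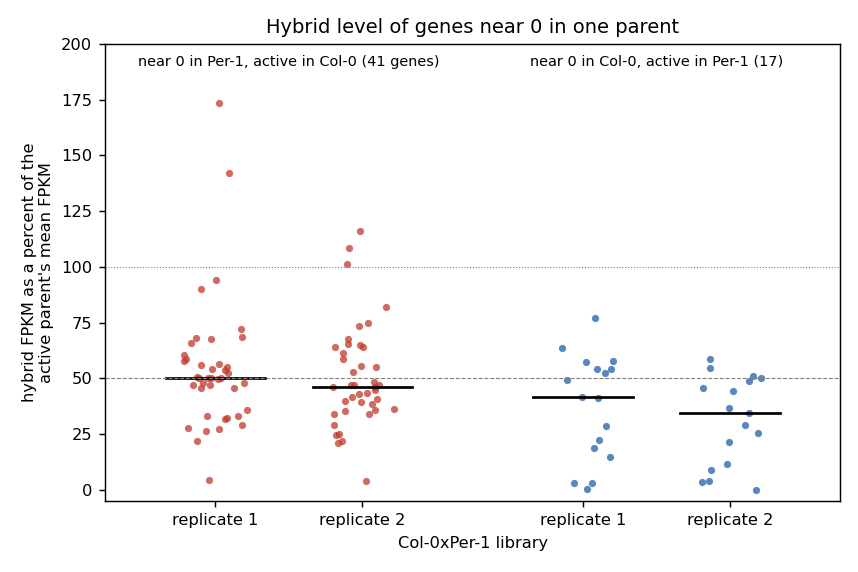
Each point is a gene; its height is the FPKM in 1 hybrid library as a percent of the mean of the parent in which the gene is active, and bars are medians. The 41 genes near 0 in Per-1 (left, medians 50.3% and 46.1%) centre near the dashed 50% line, and the 17 near 0 in Col-0 (right, 41.6% and 34.4%) spread down to 0.

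The Col-0xAa-0 hybrid and its parent Aa-0 share no library with this comparison. The difference of each hybrid from its accession parent could therefore be set side by side and tested. Each such difference joins the gain of a Col-0 genome with the loss of an accession genome, and depends on the level in that accession. The difference of the 2 differences was called for 216 genes (1.34% of those tested), 70 higher and 146 lower; this test was chosen with results in view. In aliphatic glucosinolate synthesis, 17 of 29 members had a lower difference in the Per-1 cross. The list's median was -0.99 for Col-0xPer-1 against Per-1 and 0.86 for Col-0xAa-0 against Aa-0. CYP79F1 was at 45.27 and 25.86 FPKM in Col-0xAa-0 and 10.84 and 10.25 in Aa-0, the opposite direction to the Per-1 cross. AOP2 was at 3.47 and 2.17 in Col-0xAa-0 against 0.83 and 0.68, and MAM3 was near 0 in all 4 of these libraries. HPL1 was at 56.87 and 38.51 against 109.8 and 115.6 in Aa-0, while the Per-1 hybrid was at 4.94% of Per-1. For ESM1 the crosses were alike: 490.8 and 463.5 FPKM in Col-0xAa-0 against 37.87 and 41.74 in Aa-0, with a difference between crosses of -0.20 (SE 0.24, adjusted p 0.81). RPP2A behaved alike too, at 5.43 and 6.23 against 0 in both Aa-0 libraries, while CHS3 was already at 9.06 and 10.32 in Aa-0. Of the 41 genes near 0 in Per-1, 24 were also at most 0.2 FPKM in both Aa-0 libraries. For these 24 the medians were 53.3% of Col-0 in the Per-1 hybrid and 54.9% in the Aa-0 hybrid. For the 11 at 5 FPKM or more in both Aa-0 libraries they were 42.9% and 89.2%. Of the 17 genes near 0 in Col-0, 5 were at 5 FPKM or more in both Aa-0 libraries, and their hybrids had medians of 49.1% of Per-1 and 46.3% of Aa-0.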

How the data were processed

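RNA-seq of first leaves was given as 12 files of FPKM per gene, used as deposited by the authors. Per the submitters' processing notes, the tools were edgeR 3.12.0, Cufflinks 2.0.2, TopHat and TopHat2 2.0.8b, with the TAIR10 genome. The tool that made the FPKM, and any filter, is not given in the sources used here. Libraries were made with a TruSeq kit from RNeasy RNA, per the labels' protocols. Absolute depth is unknown; relative depth was the most frequent ratio to Col-0 replicate 1 among genes at 0.08 to 2 FPKM.

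Groups followed the labels. A group-means model of all 12 libraries was fitted to log2(FPKM + 1) with limma 3.58.1 (R 4.3.3; trend, 7 residual degrees of freedom), checked on simulated data, and adjusted over the 16116 genes tested. Gene symbols, overlaps and promoter windows came from RefSeq's TAIR10.1 table and genome, where 31416 of 34133 identifiers matched. Python 3.11.15, pandas 2.3.3 and matplotlib 3.10.9 made tables and plots.

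Named genes were the 12 largest rises and falls called without overlapping values and with a mean of at least 5 FPKM in the higher group, from every list the called members of smallest adjusted p (4 at most), 30 fixed genes, and the 8 highest of each set near 0 in a parent. Other members of the lists and sets were named after their values were seen, and 1 NLR gene that is counted in its list is not reported here. The comparison, the 26 lists beside the organelle-encoded genes, and the tests were chosen with earlier results of these data known. Alternatives were the pseudocount, the filter, the scaling, the libraries fitted, the trend, a replicate block, overlapping genes and leaving out each library.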

Additional observations from a re-analysis of the deposited data

Results flagged for a closer look

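Of values in the 4 Col-0 libraries, 3 genes had 1 library apart from the others by Dixon's test, which chance flags in about 1 in 20 groups. AT3G28320 was at 0.03 FPKM in 1 library and 0 in the others, and FLC at 0.26 FPKM in 1 library and 0 to 0.04 in the others; both are near the limit of the 2 decimals given. ATMG01080 was at 3.37 FPKM in 1 library and 4.25 to 4.34 in the others.

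Of the genes named in every case, 7 differed between the Per-1 and the Aa-0 cross, against 1.34% of all genes tested. The limma test took hybrid minus Per-1, less Col-0xAa-0 minus Aa-0, on the log2(FPKM + 1) scale, adjusted over all genes. It also holds the gap between Per-1 and Aa-0 themselves, so a different response to Col-0 was not separated from it. MAM3, for example, was at 46.5 and 40.34 FPKM in Per-1 and at 0 and 0.03 in Aa-0. The difference was -5.19 for AOP2 (adjusted p 5.2e-05), -4.05 for MAM3 (1.4e-06), -3.08 for CYP79F1 (0.0057), -2.53 for CYP79F2 (0.00080) and -2.70 for HPL1 (0.0025). It was 4.98 for TGG2 (1.4e-06), which was at 133 and 106.9 FPKM in Aa-0 and 183.8 and 151.3 in Col-0xAa-0. It was -2.63 for RPP2B (0.00027), which was at 0.2 and 0.24 FPKM in Aa-0 and 4.81 and 5.04 in Col-0xAa-0, while it did not pass between Col-0xPer-1 and Per-1. For all 7, the 2 Col-0xPer-1 values lay on the same side of the 2 Per-1 values. This also held for every one of the 773 genes called between Col-0xPer-1 and Per-1. Of all 16116 genes tested, 3514 had both hybrid values above and 5253 had both below.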

How the results depend on the processing

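The counts of 374 genes that rose and 399 that fell were within 1.5 times of themselves with pseudocounts of 0.1 or 5, without a filter, under 3 other scalings, without the trend, and in fits on the 4 libraries or without Col-0. They dropped to 161 and 202 among genes of at least 5 FPKM in 2 libraries, and to 205 and 204 without overlapping genes, where fewer genes were tested. Leaving out 1 library gave 221 to 376 rises, 164 to 383 falls and a median difference of -0.109 to 0.012; quantile normalization moved the median to 0.024. Rises were 55.5% of calls at a pseudocount of 0.1 and 42.2% at 5, 57.4% without Per-1 replicate 1 and 59.1% without hybrid replicate 2, against 48.4% as reported.

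Replicate numbers were not taken to pair the samples: same-numbered hybrid and Per-1 libraries deviated together (r = 0.388 across genes, 2 pairs), but other pairs of groups ran from -0.605 to 0.314. With the replicate number as a block, 458 genes rose and 495 fell; PR1, PR5, CYP83A1 and UGT75C1 were no longer called and CCA1 was.

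For genes near 0 in Per-1, the hybrid's median share of Col-0 was 46.1% to 50.3% in single hybrid libraries, 56.8% with median-ratio scaling and 43.8% without overlapping genes. For genes near 0 in Col-0 the share of Per-1 was 34.4% to 41.6% in single libraries, 33.6% with a limit of 0.5 FPKM for silence, 49% for genes of at least 10 FPKM in Per-1, and 50.6% with median-ratio scaling. MYB28, which did not pass, ran from -0.16 to 0.46 when single libraries were left out; of the other genes named by rule, none changed sign in those omissions. Salicylic acid members that fell were 2 with a pseudocount of 0.1 and 8 with quantile normalization, against 5. Quantile normalization removed the calls of CYP79F1, IMD1, BAT5, SUR1, CYP83A1, CYP83B1, ATCG00820 and ATCG00900. MYC2, IGMT1, PR1 and PR5 lost theirs with a pseudocount of 0.1, without a filter and with a filter of 5 FPKM. Precision is limited by 2 libraries a group and by the shallow hybrid replicate 2; the cause of these moves was not tested.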
